A study of Arabidopsis thaliana with 6 samples.

Results

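The glutathione S-transferase (GST) genes of Arabidopsis thaliana were examined in shoots of sme1-1 and of wild type. The members were 45 loci named by class and number (GSTU1 to GSTU28, GSTF2 to GSTF11, GSTF13, GSTF14, GSTZ1, GSTL1 to GSTL3 and GSTT1), out of 37869 genes in the deposited gene table. They comprise 28 tau, 12 phi, 3 lambda, 1 zeta and 1 theta genes. GSTF12, by its name also a phi gene, was left out of the set, so the phi counts and sums below do not include it. All 45 were found in the table and in RefSeq, where GSTU17 carries the symbol ERD9 and GSTF13 the symbol ATGSTF13. There were 3 libraries of sme1-1, written smeb-1 in the sample labels, a mutant of SME1 (AT2G18740), which encodes a core protein of spliceosomal small nuclear ribonucleoproteins. They were set against 3 libraries of wild type, and both genotypes are Col-0. All plants were grown in vitro with 1% sucrose for 3 weeks at 21 °C with 16 h of light and harvested without stress. The mutant libraries are titled KO-T and the wild-type libraries WT-T. Beyond these titles, the nature of the mutant allele and the number of plants in a library are not stated in the sources used here. As the series title links SME1 deficiency to tolerance of oxidative stress, the comparison addresses how the detoxification enzymes stood before any stress.

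GSTs join the thiol of glutathione to reactive or foreign compounds, and the conjugates are then moved into the vacuole by ATP-binding cassette pumps. In plants the large tau and phi classes carry most of this work on herbicides, lipid peroxidation products and defence metabolites, and many of their genes are known to be induced by salicylic acid, oxylipins, xenobiotics and oxidative stress. The zeta class acts in tyrosine breakdown, theta enzymes can reduce organic hydroperoxides, and lambda enzymes carry a cysteine in the active site and remove glutathione from conjugates rather than adding it.

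Levels were deposited as TPM, an abundance scaled for transcript length and to the same total in every library. They keep no sequencing depth, so the depth behind a value is unknown and no counting interval is given. SME1 itself was at 36.1, 31.6 and 29.7 TPM in the sme1-1 libraries, against 76.9, 73.9 and 75.3 TPM in the wild-type libraries. It was thus lower in every sme1-1 library, but the libraries titled KO still held it at 0.43 of the wild-type mean. From 20344 to 20580 genes reached 1 TPM in the sme1-1 libraries, and from 18827 to 18997 in the wild-type libraries. Of 6 leaf photosynthesis markers, such as RBCS1A and LHCB1.1, all were abundant, with sums of 30944 to 34628 TPM in sme1-1 and 32970 to 34388 TPM in wild type. Singly they went both ways. In the test given below RBCS1A and GAPB were called higher, RCA and PSBO1 lower, and the other 2 were not called, beside 47.3% of all genes called higher and 20.0% lower. These calls depended on scaling. Median-of-ratios scaling gave 0 higher and 4 lower, beside 33.9% and 33.2% of all genes. Quantile normalization gave 4 higher and 0 lower, beside 30.4% and 36.3% of all genes. The labels do not say whether libraries of a genotype came from separately grown plants, so the p-values speak of the spread between these 6 libraries only, and that spread may be technical.

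Most of the GST family was higher in sme1-1. Of the 45 members, 33 rose, 2 fell (GSTF8 and GSTL2), 5 were tested and not called (GSTU13, GSTU28, GSTF2, GSTF3 and GSTF4) and 5 had a mean below 1 TPM over the 6 libraries and were not tested (GSTU3, GSTU12, GSTU15, GSTU21 and GSTF13). The test was limma on log2(TPM + 1) over the 20100 genes whose mean reached 1 TPM, with p-values adjusted by Benjamini-Hochberg over all of them and a threshold of 0.05. In the same test 47.3% of all genes were called higher and 20.0% lower in sme1-1, so a rise alone was common. The sizes stood further apart. Of the members, 27 were called higher with a log2 change of at least 1, a step that 14.1% of all genes tested reached, and none was called lower by that much, which 4.74% of all genes were. The median log2 change of the 40 tested members was 1.28, beside 0.22 over all genes tested.

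The filter lets in members that are high in a single genotype, and 5 of the tested members averaged under 1 TPM in wild type. GSTU2, GSTU11, GSTU14 and GSTF5 are among them. These genes passed the filter only through sme1-1, and they are counted in the 27 and in the median. The 27 and the median were not recomputed for genes at 1 TPM or more in each genotype, so both are descriptions of the filtered set. Among the 35 tested members at 1 TPM or more in each genotype 29 rose and 2 fell, while 44.9% of the 18589 such genes were called higher and 20.9% lower. Scaling to the median gene by median-of-ratios size factors left 30 members higher and 3 lower, with 33.9% of all genes called higher and 33.2% lower. Quantile normalization left 30 higher and 5 lower, with 30.4% of all genes called higher and 36.3% lower. The deposited values place the median gene 0.22 above 0 on the log2 scale. Relative to that gene the members' median was 1.06. In bulk tissue, more cells of a type and more RNA per cell cannot be told apart.

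**Figure D1:**
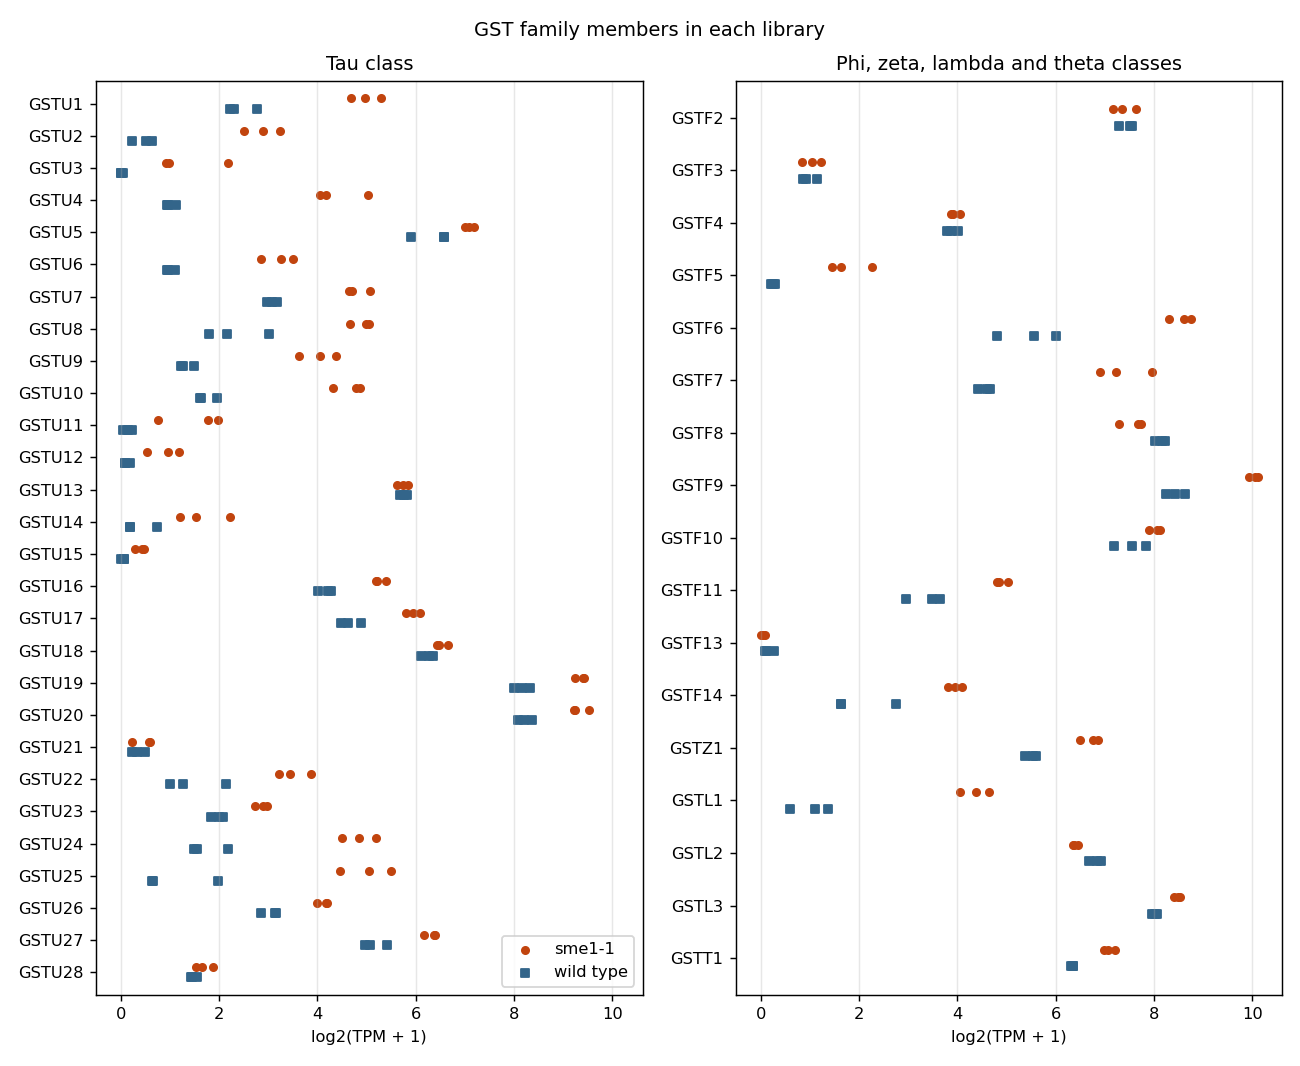
Level of each of the 45 members in each library, as log2(TPM + 1), with sme1-1 libraries as circles above wild-type libraries as squares, and the tau class on the left. The sme1-1 libraries lie wholly to the right of the wild-type libraries in 36 members, wholly to the left in 3 (GSTF8, GSTF13 and GSTL2), and overlap in 6.

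In the plot of all members by library the genotypes did not overlap in 39 members, 36 of them higher in sme1-1 and 3 lower. Among the 40 tested members 33 were wholly higher in sme1-1 and 2 wholly lower, beside 51.0% and 22.4% of all genes tested. The 6 members whose libraries overlapped were GSTU13, GSTU21, GSTU28, GSTF2, GSTF3 and GSTF4.

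The tau class is a plant enzyme group that takes in many herbicides and lipid-derived compounds. Of its 28 members, 22 rose and none fell, 2 were not called and 4 were not tested. It held the 2 largest log2 changes of the tested members, in GSTU25 and GSTU4, which wild-type shoots barely expressed. A lambda gene, GSTL1, came next, and the phi gene GSTF6 was level with GSTU24. GSTU25 (AT1G17180), an enzyme known to conjugate the explosive trinitrotoluene, had 44.0, 20.9 and 32.1 TPM in sme1-1, against 0.571, 0.553 and 2.92 TPM in wild type. All sme1-1 libraries were far above the wild-type ones, and wild-type replicate 3 stood above the other wild-type libraries. Its log2 change was 3.91 ± 0.42 (standard error, limma adjusted p = 0.000261). GSTU24 (AT1G17170), its neighbour, which is known for the same activity, had 35.7, 21.5 and 27.6 TPM in sme1-1, against 1.82, 1.92 and 3.54 TPM in wild type, a log2 change of 3.10. The groups did not overlap there either, and the sme1-1 libraries stood in the same order as for GSTU25.

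GSTU4 (AT2G29460) had 17.1, 15.7 and 31.5 TPM in sme1-1, against 0.921, 0.947 and 1.17 TPM in wild type. The change was 3.42 ± 0.25 on the log2 scale (standard error, limma adjusted p = 6.04e-05), and here replicate 3 was the highest sme1-1 library. GSTU1 (AT2G29490), known to respond to oxylipins, had 38.1, 24.7 and 30.3 TPM in sme1-1, against 3.65, 3.91 and 5.80 TPM in wild type, a log2 change of 2.55. GSTU7 (AT2G29420) had 32.4, 23.8 and 25.1 TPM in sme1-1, against 6.83, 7.48 and 7.99 TPM in wild type, a log2 change of 1.73 (limma adjusted p = 5.82e-05). In each of these 3 genes every sme1-1 library lay well above every wild-type library.

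The sequences before 3 of these tau genes are shown because they hold the TGACG core of the as-1 element, which TGA transcription factors bind and which is known from promoters of induced GST genes. They were chosen for holding it, and no TGACG lies in the 250 bases before GSTU2, GSTU4, GSTU8 or GSTU10, which also rose. The stretches that end just before the RefSeq gene start are given in the direction of transcription from TAIR10.1, with TGACG or its reverse complement CGTCA in capitals. They lie at chr2:12632539-12632693 (GSTU1, minus strand), chr2:12618900-12619054 (GSTU7, minus strand) and chr1:5871869-5872023 (GSTU25, plus strand).
GSTU1: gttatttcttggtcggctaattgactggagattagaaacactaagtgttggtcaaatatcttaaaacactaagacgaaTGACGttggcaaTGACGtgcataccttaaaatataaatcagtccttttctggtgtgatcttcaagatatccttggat
GSTU7: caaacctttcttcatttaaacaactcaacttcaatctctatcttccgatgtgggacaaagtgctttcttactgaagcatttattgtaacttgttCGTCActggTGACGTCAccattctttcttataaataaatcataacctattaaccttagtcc
GSTU25: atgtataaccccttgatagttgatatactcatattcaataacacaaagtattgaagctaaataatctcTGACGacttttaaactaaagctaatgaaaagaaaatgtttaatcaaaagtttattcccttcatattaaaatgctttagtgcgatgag
GSTU1 held the core at -77 and -65 relative to the gene start, GSTU7 at -61, -52 and -49, where the matches at -52 and -49 overlap in a palindrome, and GSTU25 at -87.

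Other tau genes of low wild-type level also rose by a log2 change above 2. GSTU10 had 26.4, 18.9 and 28 TPM in sme1-1, against 2.12, 2.06 and 2.87 TPM in wild type (log2 change 2.91). GSTU9 had 15.6, 11.3 and 19.8 TPM in sme1-1, against 1.40, 1.33 and 1.79 TPM in wild type (log2 change 2.70). GSTU8 had 32.1, 24.2 and 30.6 TPM in sme1-1, against 2.49, 3.45 and 7.05 TPM in wild type (log2 change 2.57). These 3 genes lie apart from each other and from the other members in the genome, and their genotypes did not overlap. GSTU2 had 8.46, 4.70 and 6.44 TPM in sme1-1, against 0.172, 0.433 and 0.546 TPM in wild type (log2 change 2.42). GSTU6 had 10.4, 6.20 and 8.51 TPM in sme1-1, against 0.949, 0.918 and 1.16 TPM in wild type (log2 change 2.20). GSTU22 had 13.7, 8.25 and 9.91 TPM in sme1-1, against 1.40, 0.999 and 3.43 TPM in wild type (log2 change 2.04). Wild-type replicate 3 was again the highest of its genotype in these 3 genes, and sme1-1 replicate 1 the highest of its own.

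GSTU11 and GSTU14 also rose, from wild-type levels near 0. GSTU11 had 0.696, 2.42 and 2.94 TPM in sme1-1, against 0.106, 0.0328 and 0.167 TPM in wild type, a log2 change of 1.37 (limma adjusted p = 0.00741). GSTU14 had 3.65, 1.29 and 1.88 TPM in sme1-1, against 0.141, 0.131 and 0.664 TPM in wild type, a log2 change of 1.28 (limma adjusted p = 0.00724). The log2(TPM + 1) scale understates changes at such levels. After quantile normalization neither was called (limma adjusted p = 0.1 for GSTU11 and 0.101 for GSTU14).

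The abundant tau genes rose by less on the log2 scale and by more in TPM. GSTU19 (AT1G78380), an abundant cytosolic enzyme known to respond to herbicide safeners, had 672, 607 and 684 TPM in sme1-1, against 256, 285 and 319.9 TPM in wild type. Its log2 change was 1.19 ± 0.09 (standard error, limma adjusted p = 8.21e-05). GSTU20 (AT1G78370), known as a partner of the jasmonate-conjugating enzyme FIN219, had 605, 740.3 and 599 TPM in sme1-1, against 269, 295 and 328 TPM in wild type, a log2 change of 1.12. Together the pair made up 64.3% of the summed tau level in sme1-1 and 64.1% in wild type. GSTU5 had 146, 127 and 134 TPM in sme1-1, against 58.4, 94.6 and 94.9 TPM in wild type. Its log2 change of 0.74 passed the test (limma adjusted p = 0.0118), but was 0.50 after median-of-ratios scaling and did not pass (limma adjusted p = 0.0560).

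Tau genes of middle level rose by a similar factor. GSTU17, known as a dehydration-induced gene with a part in light and abscisic acid responses, had 67.1, 60.9 and 54.5 TPM in sme1-1, against 21.3, 23.7 and 28.6 TPM in wild type (log2 change 1.28). GSTU27 had 71.1, 81.6 and 82.8 TPM in sme1-1, against 30.4, 32.3 and 41.7 TPM in wild type (log2 change 1.16). GSTU16 had 41.0, 36.1 and 35.6 TPM in sme1-1, against 15.2, 17.6 and 18.3 TPM in wild type (log2 change 1.1). The genotypes were well apart in each of them, and the spread within a genotype was small beside the gap. GSTU26 had 17.0, 15.0 and 17.2 TPM in sme1-1, against 6.25, 7.81 and 7.88 TPM in wild type (log2 change 1.07).

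The other 4 tested tau genes had log2 changes below 1. GSTU23 averaged 6.32 ± 0.623 TPM in sme1-1 and 2.93 ± 0.338 TPM in wild type (SD, n = 3 each), a log2 change of 0.90 that passed. GSTU18 averaged 91.0 ± 7.64 TPM in sme1-1 and 74.8 ± 6.36 TPM in wild type, and its log2 change of 0.28 passed on the deposited values (limma adjusted p = 0.0263) but not once scaled to the median gene (0.05, limma adjusted p = 0.716). It also did not pass without sme1-1 replicate 2, wild-type replicate 1 or wild-type replicate 2. GSTU13, known for a part in the breakdown of indole glucosinolates, averaged 52.3 ± 3.92 TPM in sme1-1 and 53.0 ± 2.90 TPM in wild type, with overlapping libraries and a log2 change of -0.02 ± 0.07 (standard error). GSTU28 averaged 2.24 ± 0.401 TPM in sme1-1 and 1.78 ± 0.124 TPM in wild type (limma adjusted p = 0.148).

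Among the untested tau genes, GSTU3 had 0.898, 0.974 and 3.51 TPM in sme1-1, against 0.0368 TPM in 1 wild-type library and values listed at 0 in the others. GSTU12 and GSTU15 also had no overlap between genotypes, with means of 0.881 and 0.315 TPM in sme1-1 and of 0.0913 and 0.0311 TPM in wild type. GSTU21 averaged 0.392 TPM in sme1-1 and 0.276 TPM in wild type, and its libraries overlapped. With no filter on low values 25 tau genes were called higher in place of 22, beside 11112 of 29482 genes in all.

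The phi class, the other large plant class, moved less evenly. Of 12 members, 7 rose, GSTF8 fell, 3 were not called and GSTF13 was not tested. GSTF9 (AT2G30860), the most abundant GST transcript in both genotypes and known for glutathione peroxidase activity, had 981, 1103 and 1066 TPM in sme1-1, against 301, 345 and 393 TPM in wild type. This was a log2 change of 1.61 ± 0.10 (standard error, limma adjusted p = 4.40e-05), and it alone added more TPM than any other member. GSTF10 (AT2G30870), the gene next to it, had 279, 238 and 267 TPM in sme1-1, against 227, 187 and 146 TPM in wild type. The groups were separated by a narrow gap, and the log2 change of 0.50 (limma adjusted p = 0.0269) did not pass once scaled to the median gene (0.27, limma adjusted p = 0.153). The call was also lost without sme1-1 replicate 1 or 3 or without wild-type replicate 2 (limma adjusted p between 0.0633 and 0.0748).

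GSTF6 (AT1G02930), known to act in the synthesis of the phytoalexin camalexin, had 431, 316 and 387 TPM in sme1-1, against 63.0, 46.0 and 26.8 TPM in wild type. It was the fourth most abundant member in sme1-1 and the 13th in wild type, with a log2 change of 3.10 ± 0.29 (standard error, limma adjusted p = 0.000159). GSTF7 (AT1G02920), its neighbour, had 119, 148 and 249 TPM in sme1-1, against 23.4, 24.3 and 20.5 TPM in wild type, a log2 change of 2.80. The coding sequences of this pair are 94.3% identical, and those of GSTF2 and GSTF3 94.5%, the only member pairs at 90% or more. How reads were split within these pairs decides their separate values, so these are less certain than the others. The libraries of GSTF6 and GSTF7 did not follow the same order within sme1-1, and no genotype overlapped with the other in either gene.

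The sequence before GSTF7 is shown as that of a strongly raised phi gene, with capitals at TTGAC or its reverse complement GTCAA, the core of the W-box that WRKY transcription factors bind. It holds no TGACG. It lies at chr1:659981-660135 on the minus strand of TAIR10.1 and ends just before the gene start. Of the other phi genes that rose, GSTF6, GSTF10 and GSTF14 also hold TTGAC in the 250 bases before the start. GSTF5, GSTF9 and GSTF11 do not.
GSTF7: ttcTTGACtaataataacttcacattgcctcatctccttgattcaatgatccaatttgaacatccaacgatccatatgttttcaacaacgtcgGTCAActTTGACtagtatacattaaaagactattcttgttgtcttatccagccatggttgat

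Less abundant phi genes rose as well. GSTF14 had 14.5, 13 and 16.2 TPM in sme1-1, against 2.1, 2.1 and 5.71 TPM in wild type (log2 change 1.95). GSTF5 had 3.82, 2.12 and 1.73 TPM in sme1-1, against 0.158, 0.227 and 0.184 TPM in wild type (log2 change 1.54). GSTF11, linked with GSTU20 to aliphatic glucosinolate synthesis, had 26.9, 31.9 and 27.9 TPM in sme1-1, against 6.77, 10.2 and 11.4 TPM in wild type (log2 change 1.54). None of the 3 overlapped between genotypes.

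GSTF8 (AT2G47730) ran the other way. This gene is a classic reporter of oxidative and salicylic acid signals, and it had 154.6, 203.1 and 213.6 TPM in sme1-1, against 297.7, 285.1 and 259.4 TPM in wild type. Every sme1-1 library was below every wild-type library. The log2 change was -0.57 ± 0.13 (standard error, limma adjusted p = 0.00689). In wild type it was the fourth most abundant member and in sme1-1 the seventh. GSTF2 (AT4G02520), which binds indole compounds such as camalexin, had 142, 198 and 162 TPM in sme1-1, against 183, 187 and 156 TPM in wild type. Its libraries overlapped and the log2 change of -0.08 had a standard error of 0.13. GSTF3 (1.07 ± 0.271 TPM in sme1-1 and 0.972 ± 0.205 TPM in wild type) and GSTF4 (14.4 ± 0.962 TPM in sme1-1 and 13.8 ± 1.12 TPM in wild type, SD, n = 3 each) were not called either. GSTF13 was near 0 in every library, with a mean of 0.0331 TPM in sme1-1 and 0.117 TPM in wild type.

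**Figure D2:**
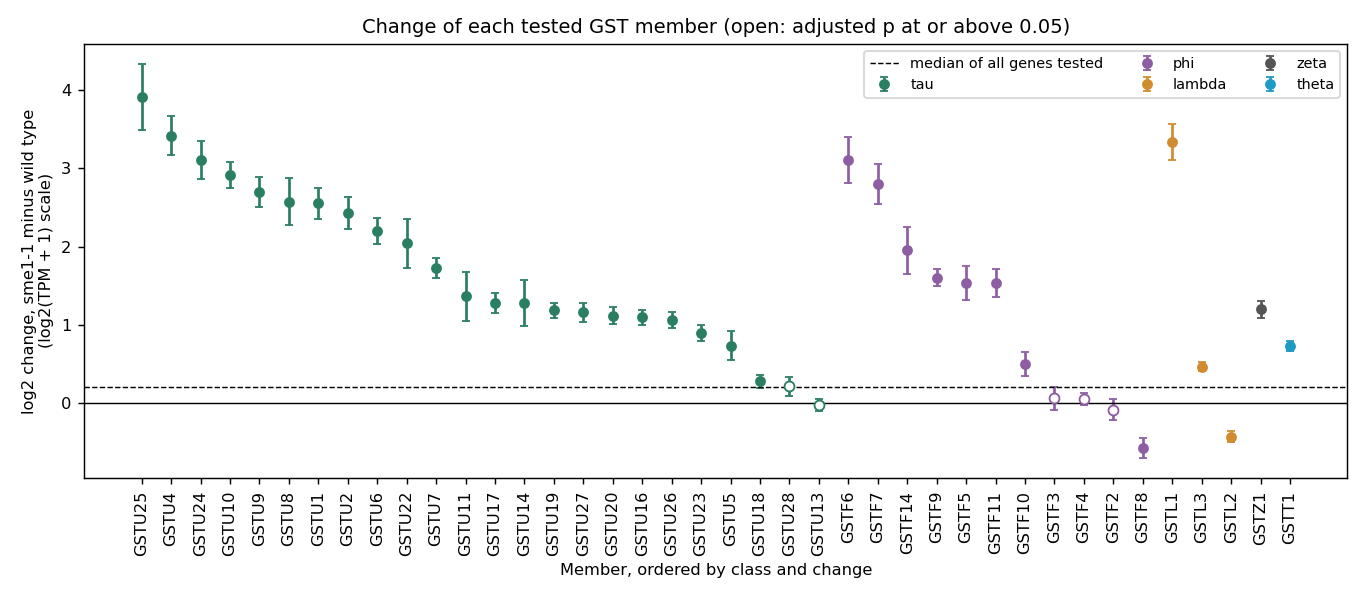
Log2 change of each of the 40 tested members, sme1-1 minus wild type on the log2(TPM + 1) scale, with standard errors, ordered by class and size. Open points are the 5 members not called, and the dashed line is the median of all genes tested at 0.22. Tau values run from -0.02 to 3.91 and phi values from -0.57 to 3.10.

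The plot of changes by class shows that large changes and changes near 0 stood side by side within the phi class, which had a median log2 change of 1.54. The tau median was 1.32. The 3 lambda genes were all called, and not in 1 direction. Of these, GSTL1 (AT5G02780) had 23.9, 15.5 and 19.9 TPM in sme1-1, against 0.510, 1.16 and 1.58 TPM in wild type, a log2 change of 3.33 (limma adjusted p = 5.29e-05). GSTL3 (AT5G02790), next to it on chromosome 5, had 370.4, 359 and 339.6 TPM in sme1-1, against 248, 265 and 259.6 TPM in wild type, a log2 change of 0.47 (limma adjusted p = 0.000412). Both rose with no overlap, though the wild-type level of GSTL3 was far higher. GSTL2 (AT3G55040), whose product is targeted to plastids, fell: it had 81.8, 86.5 and 80.6 TPM in sme1-1, against 120.0, 114 and 101 TPM in wild type (log2 change -0.42, limma adjusted p = 0.00229).

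The zeta and theta genes rose. GSTZ1 (AT2G02390), maleylacetoacetate isomerase of tyrosine breakdown, had 115, 89.2 and 107 TPM in sme1-1, against 45.3, 47.3 and 40.7 TPM in wild type, a log2 change of 1.20 (limma adjusted p = 0.000124). GSTT1 (AT5G41210) had 146, 133 and 126 TPM in sme1-1, against 81.0, 81.3 and 79.0 TPM in wild type, a log2 change of 0.74 (limma adjusted p = 0.000117). In both genes the lowest sme1-1 library was well above the highest wild-type library.

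The summed level of the family was about 2.01 times as high in sme1-1. All 45 members together made 5004 ± 79.1 TPM in sme1-1 and 2492 ± 65.7 TPM in wild type (SD, n = 3 each), or 0.500% and 0.249% of all TPM. Tau genes summed to 2050, 2011 and 2015 TPM in sme1-1, against 802, 918 and 1017 TPM in wild type, a ratio of 2.22. Phi genes summed to 2168, 2268 and 2407 TPM in sme1-1, against 1119, 1101 and 1033 TPM in wild type, a ratio of 2.1. The zeta, lambda and theta genes together summed to 698 ± 34.4 TPM in sme1-1 and 495 ± 13 TPM in wild type, a ratio of 1.41. Within that group the lambda sum had a ratio of 1.24, in which the fall of GSTL2 offset part of the rise of GSTL3. No library of a genotype overlapped with the other genotype in any of these sums, which carry no test because the members were chosen with results known.

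**Figure D3:**
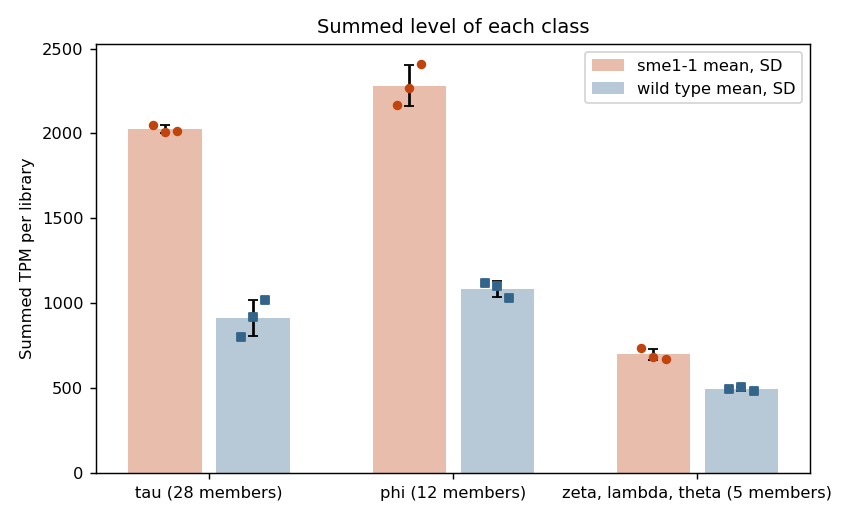
Summed TPM of the tau, phi and other members per library (points), with the mean and SD of each genotype (bars), sme1-1 left of wild type. Tau sums were 2025 ± 21.7 TPM in sme1-1 and 912 ± 108 TPM in wild type, and phi sums 2281 ± 120.1 TPM in sme1-1 and 1085 ± 45.4 TPM in wild type.

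In the plot of class sums the tau sum had the smallest SD of the 3 within sme1-1, and the largest within wild type. The tau share of the family level was 40.5% in sme1-1 and 36.6% in wild type, and the phi share 45.6% in sme1-1 and 43.5% in wild type. The lambda share was 9.17% in sme1-1 and 14.9% in wild type. The 5 most abundant members, GSTF9, GSTU19, GSTU20, GSTF6 and GSTL3 in sme1-1, held 61.7% of the family level. In wild type the 5 were GSTF9, GSTU20, GSTU19, GSTF8 and GSTL3, with 58.9%. GSTU20 was above GSTU19 in 1 of the 3 sme1-1 libraries and in all 3 wild-type libraries, and the ranges of both genes overlapped within each genotype. The number of members at 10 TPM or more was 32 in sme1-1 and 19 in wild type, and the number below 1 TPM was 4 in sme1-1 and 10 in wild type.

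Members with low wild-type levels had the larger changes. The 21 tested members below 10 TPM in wild type had a median log2 change of 2.04, and the 19 at or above 10 TPM one of 0.74. Over all genes tested the medians were 0.46 below 10 TPM and 0.05 at or above it. The Spearman correlation between wild-type level and log2 change was -0.50 over the 40 members, -0.54 over 24 tau and -0.17 over 11 phi genes, and -0.43 over all genes tested. These correlations are across genes, which are not independent, and the wild-type libraries enter both measures, so they are given as descriptions. The filter also builds in part of this pattern, in the members and in all genes. A gene under 1 TPM in wild type was tested only where sme1-1 was higher, as were 5 of the members below 10 TPM.

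**Figure D4:**
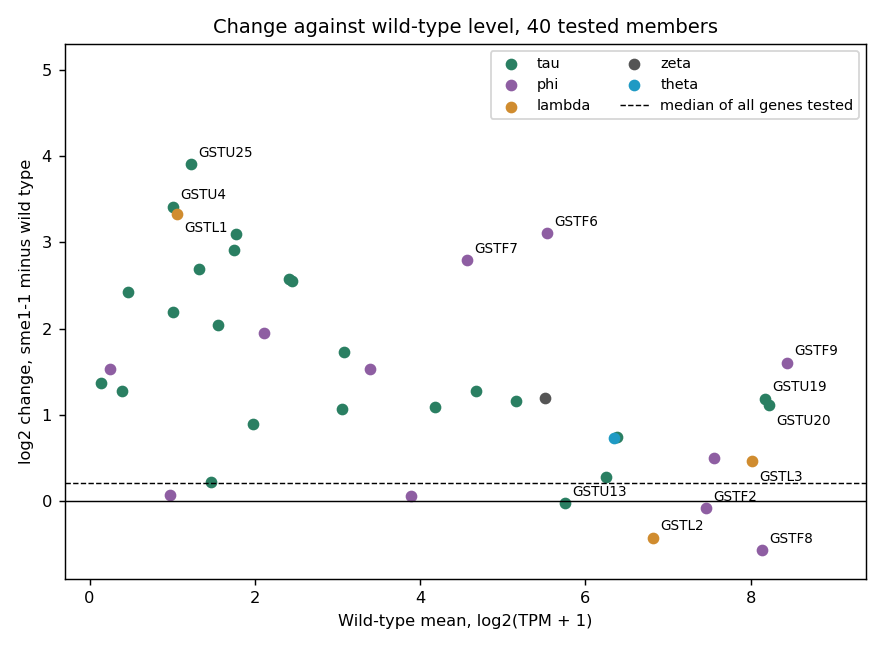
Log2 change (sme1-1 minus wild type) of the 40 tested members against the wild-type mean as log2(TPM + 1), coloured by class, with the median of all genes tested as a dashed line. GSTF6 and GSTF7 lie above members of like wild-type level, and GSTF8 and GSTL2 lie below 0.

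In the plot of level and change, members of similar wild-type abundance parted widely. GSTF9 and GSTF8 had wild-type means of 346 ± 46.1 and 281 ± 19.5 TPM, and log2 changes of 1.61 and -0.57. GSTF6 and GSTU13 had wild-type means of 45.3 ± 18.1 and 53.0 ± 2.90 TPM, and log2 changes of 3.10 and -0.02.

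The GST genes lie largely in tandem arrays. With neighbours joined at gaps of up to 20000 bases, 31 of the 45 members fell into 10 clusters. The longest, GSTU7 to GSTU1 on chromosome 2 between 12617936 and 12632538 (TAIR10.1), held 7 genes, and its 6 tested genes all rose with log2 changes between 0.74 and 3.42. Their levels nevertheless differed widely, with means between 1.79 TPM (GSTU3) and 135 TPM (GSTU5) in sme1-1. On chromosome 1, between 29467412 and 29488007, GSTU19, GSTU20, GSTU22 and GSTU23 rose and GSTU21 in their midst was too low to test. Between 658578 and 666471 on the same chromosome GSTF5, GSTF6 and GSTF7 rose, and GSTF4 at the end of the array was not called. GSTU24, GSTU25 and GSTU26, between 5869543 and 5876620, all rose, and GSTU26 by the least. In the pair GSTU13 and GSTU14, with 82.0% identical coding sequences, GSTU14 rose and GSTU13 was not called.

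**Figure D5:**
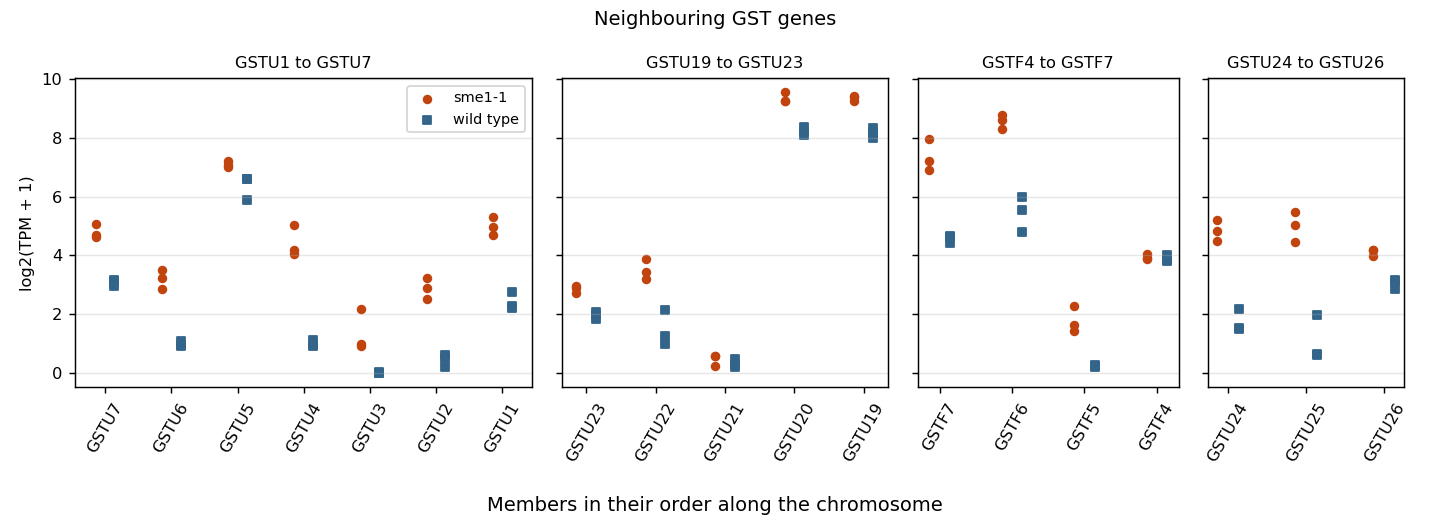
Level of the genes of 4 tandem clusters in each library, as log2(TPM + 1), in their order along the chromosome, with sme1-1 circles left of wild-type squares. The libraries of the genotypes are apart in 17 of the 19 genes and overlap in GSTU21 and GSTF4.

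The plot of neighbouring genes shows that the common direction within a cluster went with very different levels. The sharp steps between neighbours were present in both genotypes: GSTU20 and GSTU21 stood at 648 and 0.392 TPM in sme1-1 and at 298 and 0.276 TPM in wild type.

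Promoter words were counted in the 250 bases before the RefSeq gene start, on both strands, for all 45 members and for 27443 protein-coding genes. TGACG was present in 15 members (33.3%) and in 18.6% of all promoters, among them GSTU1, GSTU7 and GSTU25 as printed above. By class it was present in 11 of 28 tau (39.3%) and 3 of 12 phi promoters (25%). It was present in 9 of the 27 members that rose by a log2 change of at least 1 and in 6 of the other 18, which is 33.3% of each. The members with 2 or more matches were GSTU1, GSTU7 and GSTU9, beside 881 of the 27443 promoters. All 3 were among the 27, as were most of the 45 members, so so few genes show no difference between risen and other members. The promoter of GSTF8, which fell, holds TGACG at -193. TTGAC was present in 60% of member promoters, 50% of phi promoters and 44.9% of all. It was present in 59.3% of the 27 risen members and in 61.1% of the other 18. ACGTG, the core of the abscisic acid response element, was present in 37.8% of member promoters and 22.9% of all. A TGACG followed by TG also holds ACGTG, so these counts overlap. A match of these letters is not evidence of a bound site.

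The members' values differed between libraries of a genotype in a shared way. Wild-type replicate 3 was the highest wild-type library in 22 of the 24 tested tau genes (91.7%), against 3 of 11 phi genes (27.3%) and 30.4% of all genes tested. In sme1-1, replicate 1 was the highest library in 15 of 24 tau genes (62.5%), against 49.1% of all genes tested. Root marker genes stood in a like pattern. The 12 root markers, such as the iron transporter gene IRT1 and the root hair gene PRP3, summed to 92.0, 55.4 and 64.1 TPM in sme1-1, against 15.0, 14.2 and 19.4 TPM in wild type. Sums were thus higher in every sme1-1 library, highest in replicate 1 within sme1-1 and in replicate 3 within wild type. They rest largely on few genes. PHO1 had 33.55, 26.55 and 26.56 TPM in sme1-1, against 12.24, 11.22 and 13.48 TPM in wild type. IRT1 had 24.81, 13.51 and 15.77 TPM in sme1-1, against 0.208, 0.911 and 0.815 TPM in wild type. All 9 root markers that could be tested rose, but 8 of them averaged below 1 TPM in wild type and passed the filter only through sme1-1, so this count is no support for a rise. Of all 12, 11 averaged below 1 TPM in wild type, with COBL9 and NRT2.1 at 0.0490 and 0.0344 TPM. Of the tested members, 16 of 40 (40%) had their sme1-1 libraries in the order of the root marker sums, against 32.8% of all genes tested. Their wild-type libraries were in that order in 7 of 40 (17.5%), against 11.3% of all genes tested. By class, the order was that of the root sums in 11 of 24 tau genes (45.8%) in sme1-1 and 7 of 24 (29.2%) in wild type, and in 3 of 11 phi genes in sme1-1 and 0 of 11 in wild type. The part of root tissue in the GST results was not tested. Of 6 floral organ markers 2 were tested, SEP3 rose and PI was not called, with sums of 6.25 to 8.2 TPM in sme1-1 and 3.23 to 5.20 TPM in wild type. SEP3 averaged 0.763 TPM in wild type and passed the filter only through sme1-1, so its call is no support for a rise either. After quantile normalization it was not called (limma adjusted p = 0.806).

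SmE is a part of the spliceosome, so splicing within GST genes was compared. All 28 tau genes have a single intron in their main transcript, and 23 of them have only 1 annotated transcript, so most of the class offers no choice of transcript to test. Phi genes have a median of 2 introns, and the lambda, zeta and theta genes between 6 and 9. Of 13 members with at least 2 transcripts above 1 TPM, GSTZ1 and GSTF8 changed in transcript usage (limma diffSplice, adjusted p under the threshold), while 23.2% of the 9382 genes tested did. Of 26 introns that some member transcript retains, 19 in 11 genes could be tested, of which none was called higher and 1 lower (limma on the log2 ratio of retaining to splicing transcripts). Over all 16046 introns tested, 4.56% were called higher and 1.03% lower. At an unadjusted p under 0.05 the members had 4 introns higher and 2 lower of 19, beside 19.8% of all introns higher and 5.93% lower. The median log2 ratio change was -0.13 over the 19 and 0.26 over all introns. With these settings GSTZ1 was the only member that rose and also passed a usage or retention test. GSTT1 and GSTL3, which rose too, were not called in usage (limma diffSplice adjusted p = 0.0676 and 0.0876). Both passed on transcripts averaging at least 5 TPM (limma diffSplice adjusted p = 0.0107 and 0.0119).

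The intron with lower retention was the last of GSTZ1, at chr2:630590-630847 as deposited. The retaining transcript AT2G02390.2 made up 5.11%, 5.39% and 5.91% in sme1-1, against 13.8%, 12.4% and 19.1% in wild type. The genotypes did not overlap, and the log2 ratio change was -1.59 (limma adjusted p = 0.0307). The call was lost with a replicate block (limma adjusted p = 0.0823) and when any library was left out (0.0567 to 0.109). It held with a pseudocount of 1 (limma adjusted p = 0.00211) and at mean sums of at least 5 TPM (0.0220). The change itself was -1.59 with the block and lay between -1.74 and -1.38 with a library left out. In TPM this transcript was at 5.67 ± 0.781 in sme1-1 and 6.63 ± 1.01 in wild type, while the gene as a whole rose. An assembled transcript of the gene, TCONS_00016758, took 10.3% ± 3.39 of GSTZ1 in sme1-1 and 4.26% ± 0.211 in wild type (SD, n = 3 each), and the usage test gave a limma adjusted p of 0.00164. The splice sites of this intron are shown in TAIR10.1, plus strand, with the first and the last pair of intron bases in capitals, at chr2:630584-630603 and chr2:630828-630853.
GSTZ1 5′ site: aacatgGTacttttccttct
GSTZ1 3′ site: catgtatttctcttttatAGgaaccg

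GSTF8 passed the usage test more weakly (limma adjusted p = 0.0355). Its main transcript AT2G47730.2 took 84.2% ± 3.88 of the gene in sme1-1 and 92.7% ± 1.96 in wild type. An assembled transcript that keeps the intron at chr2:19558658-19558817 took 11%, 9.69% and 5.01% in sme1-1, against 0.610%, 2.46% and 4.76% in wild type. The gap between the nearest libraries was small, and the retention of this intron was not called (limma adjusted p = 0.135). With a pseudocount of 1 it was called (limma adjusted p = 0.0363), but not at mean sums of at least 5 TPM (0.111) or with the replicate block (0.197). The usage call was lost in 5 of the 6 runs with a library left out, in which the limma adjusted p lay between 0.0533 and 0.150. It was also lost with the replicate block (limma adjusted p = 0.0774) and with a pseudocount of 0.1 (0.0715).

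Genes around the family in the glutathione pathway were read in the same fit, in which 47.3% of all genes were called higher and 20.0% lower. Of 8 other soluble GST-like genes, 4 rose and 2 fell. GSTF12 (TT19), which carries anthocyanins and proanthocyanidins to the vacuole, had 293, 146 and 163 TPM in sme1-1, against 3.44, 4.57 and 5.58 TPM in wild type, a log2 change of 5.14. This exceeded the change of every tested member. The dehydroascorbate reductase genes DHAR1 (940.2 ± 105 TPM in sme1-1 and 303 ± 52.1 TPM in wild type) and DHAR2 rose, and so did GSTZ2. DHAR3 was at 206 ± 7.48 TPM in sme1-1 and 206 ± 8.25 TPM in wild type. GSTT3 and the GST family gene AT1G77290 fell.

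Of the 14 tested of 16 genes of glutathione synthesis, reduction and turnover, 7 rose and 4 fell, with a median log2 change of 0.18. GR1, cytosolic glutathione reductase, rose by 1.81 on the log2 scale and GGCT2;1, a cytosolic glutathione-degrading enzyme, by 3.08. GSH2, glutathione synthetase, fell by 0.91 and GGT1, an apoplastic gamma-glutamyl transferase, fell by 1.06. The share of higher genes in this list was near that of all genes. All 3 ABCC genes for vacuolar conjugate pumps rose, ABCC3 with 18.7 ± 1.40 TPM in sme1-1 and 4.71 ± 0.716 TPM in wild type, ABCC2 with 23.0 ± 5.97 TPM in sme1-1 and 6.55 ± 0.281 TPM in wild type, and ABCC1 with 31.7 ± 2.66 TPM in sme1-1 and 17.7 ± 0.420 TPM in wild type.

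Of the 8 genes for TGA factors and their partner SCL14, which bind the as-1 element or act there, 6 rose and none fell on the deposited values, beside 47.3% and 20.0% of all genes. Once scaled to the median gene 4 were called higher and 1 lower, beside 33.9% and 33.2% of all genes. TGA7 rose most, with 52.8, 41.2 and 42.0 TPM in sme1-1, against 5.21, 6.62 and 5.95 TPM in wild type, a log2 change of 2.74. Of 13 other detoxification genes known to be induced by xenobiotics, 12 rose and OPR1 was not called, but 5 of them averaged under 1 TPM in wild type and passed the filter only through sme1-1. Of the 8 at 1 TPM or more in each genotype 7 rose, beside 44.9% of all such genes. The 12 that rose included the cytochrome P450 gene CYP81D11 (log2 change 2.32), the MATE efflux family gene AT2G04050 (2.94) and the glucosyltransferase gene UGT74E2 (2.59), the last pair of them under 1 TPM in wild type, and the alkenal reductase gene AER (1.30).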

How the data were processed

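Per the labels' protocols, RNA of seedling shoots was sequenced as stranded mRNA libraries with paired reads of 150 bp. The authors deposited TPM per gene and per transcript with a transcript annotation; STAR 2.5.2b and kallisto 0.43.0 are listed, with no role, per the submitters' processing notes. No build is named; 99.4% of the 141522 nuclear introns of the annotation have canonical ends on TAIR10.1, which supplied sequences and symbols (RefSeq).

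Analysis used limma 3.58.1 in R 4.3.3 with an empirical Bayes trend on log2(TPM + 1), all 6 libraries, no covariate and Benjamini-Hochberg adjustment over 20100 genes. On simulated data for this comparison over 19069 genes, 78% of log2 changes of 1 and 96% of those of 2 were recovered. Usage was tested with diffSplice on transcripts averaging 1 TPM or more. Retention used log2((R + 0.1)/(S + 0.1)) with R retaining and S splicing TPM, mean sums from 2 TPM up and mean shares of 0.02 to 0.98. Alternatives were other pseudocounts, other filters, median-of-ratios and quantile scaling, no trend, a replicate block and each library left out. These shares rest on the deposited division of reads among transcripts.

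The members and lists were chosen with earlier results of these data known. Values in every library are given for members called with an absolute log2 change of at least 1 or with a mean of at least 100 TPM; of other lists, up to 4 genes with the smallest adjusted p, or any of a list of 8 or fewer, are named. OPR1, PI, SEP3, RBCS1A, LHCB1.1, GAPB, RCA, PSBO1, IRT1, PRP3, PHO1, COBL9 and NRT2.1 were named after their values were seen. The promoter sequence of 1 further phi gene is not reported here.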

Additional observations from a re-analysis of the deposited data

How the results depend on the processing

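TPM carry no depth, so what depth limits cannot be read from them, and low values have no detection limit here. With 3 libraries a genotype, p-values rest on the spread between few samples. Of 546 recomputed results for single members, 525 kept their direction and side of the threshold, 12 lost the call, 1 gained it (GSTU13, -0.25 after median-of-ratios scaling) and 8 changed sign, all of them members not called on the deposited values. The causes of the changes below were not tested. The count of members called higher lay between 27 (mean of at least 5 TPM) and 36 (no filter), and between 30 and 34 with a library left out. Of all genes, 6985 of 15375 were called higher at a mean of at least 5 TPM and 11112 of 29482 with no filter. With a library left out, from 8400 to 9135 genes were called higher.

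With median-of-ratios scaling 1 tau member, 4 other soluble GST genes and 1 TGA or SCL14 gene were called lower, the summed levels had ratios of 1.7 (all members), 1.88 (tau), 1.78 (phi) and 1.19 (zeta, lambda and theta), and the sign turned for GSTF3 (-0.052), GSTF4 (-0.16), TGA2 (-0.0058) and TGA6 (-0.13). With quantile normalization 5 members (1 tau, 3 phi) and 2 TGA or SCL14 genes were called lower, and the sign turned for GSTU28 (-0.33, limma adjusted p = 0.0478), GSTF3 (-0.59, limma adjusted p = 0.01), GSTF4 (-0.20, limma adjusted p = 0.0436), TGA2 (-0.044) and TGA6 (-0.28). At a mean of at least 5 TPM, 7 of the 8 other detoxification genes still tested were called higher and 4 of the 8 members still tested passed the usage test. A pseudocount of 1 gave 4 of 19 member introns called higher, beside 2093 of 16046 introns in all. With a library left out the log2 change ranged from -0.072 (without sme1-1 replicate 1) to 0.034 (without sme1-1 replicate 2) for GSTU13, from -0.206 (without sme1-1 replicate 2) to 0.034 (without sme1-1 replicate 1) for GSTF2, from -0.027 (without wild-type replicate 1) to 0.028 (without wild-type replicate 2) for DHAR3 and from -0.353 (without wild-type replicate 3) to 0.185 (without wild-type replicate 1) for OPR1. Leaving out single libraries gave 1 to 3 members in the usage test, 0 to 0 introns called lower and 0 to 1 TGA or SCL14 genes called lower.

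Libraries of the 2 genotypes with the same number did not deviate together (correlations of 0.02, 0.06 and 0.03 over 20100 genes), though each library correlated best with its own number. With the replicate block 33 members were higher and 2 lower, 9159 genes were higher and 3896 lower, and 0 member introns were called lower.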
